A study of Solanum chacoense with 24 samples.

Results

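The genes described here are the 100 that stood higher in beetle than in control leaves of the genotype EE501F2_093 at 24 and 48 h while their averages stayed level between the same arms of the genotype USDA8380-1. They were chosen on counts per 1000000 reads on genes (CPM). Of 32917 gene identifiers, 19825 had a mean of at least 1 CPM over the 24 libraries, and 3578 of those had beetle and control means within 0.25 of each other in USDA8380-1 at both hours. A difference, here and below, is the mean of log2(CPM + 1) over the beetle libraries minus that over the control libraries of the same genotype and hour. The 100 members had the highest values, among the 3578, of the smaller of their 24 h and 48 h differences in EE501F2_093. The differences at 24 and 48 h in both genotypes are therefore what chose the genes. They are given as a description, and nothing is read from the test counts given for them below. The libraries taken at 0 h entered the choice only through the mean CPM. They come from the same cages as the later ones, so the 0 h differences use other libraries than those that chose the genes but are not shown to be independent of them.

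The libraries came from leaves of Solanum chacoense, a wild relative of the potato, sampled around feeding by adult Colorado potato beetles. Each genotype was grown as 6 plants at 2 per cage, with 2 cages that received beetles and 1 control cage without them, and 50 beetles were placed when the plants were 15 weeks old. Leaves were taken just before beetle placement (0 h) and 24 and 48 h after it from EE501F2_093 beetle cages, the EE501F2_093 control cage, USDA8380-1 beetle cages and the USDA8380-1 control cage, which gives 12 groups of 2 libraries, each library a pool of leaf tissue. Because the arms of a genotype stood in different cages, cage and beetles cannot be told apart at 24 and 48 h, and the labels do not assign plants or cages to libraries. In pooled leaf RNA, a change in the number of cells of a type and a change in RNA per cell cannot be told apart.

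Leaves of potato and its relatives answer chewing insects mainly through the hormone jasmonate, which switches on genes for proteinase inhibitors, polyphenol oxidases and other products that make the leaf harder to digest. The Colorado potato beetle is a specialist on plants of this genus, and some S. chacoense lines, USDA8380-1 among them, are known for leaf glycoalkaloids called leptines that deter it. The deposited files do not pair the identifiers with gene names, so it is not known here which members, if any, belong to these pathways, and the leaf origin was not checked against marker genes. The identifiers follow a scheme in which the digits after DM give the chromosome and the digits after G rise along it.

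Counts on genes lay between 25050119 and 51999317 in 23 libraries and at 2114184 in USDA8380-1 beetle 0 h replicate 3, so the 0 h results of USDA8380-1 and the genotype count are given with and without it, except where a tool was run with it only. USDA8380-1 control 24 h replicate 2 also stood apart from its replicate, and it enters the choice of the members directly. The replicates of each group were further apart than counting error allows, and no pair looked like 1 library deposited again. Nothing in the labels says that the pools came from separate plants, so p-values measure the spread between these samples only.

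The name given to such a pattern is genes rising with beetles in EE501F2_093 only. The median member level in the beetle cages of that genotype stayed nearly the same over time. The difference between the arms exceeded that at 0 h at both later hours in 75 members and at neither in 10. Those later hours chose the genes, and an effect of beetles apart from that of the cage was not tested. Most members already stood higher in the beetle cages of EE501F2_093 at 0 h, before any beetle was present. The median member lay at 2.86 and 2.63 CPM in the control libraries at 0 h, replicates 1 and 2, and at 5.35 and 3.69 CPM in the libraries of the cages that were later given beetles. At 24 h the medians were 2.83 and 1.84 CPM in the control libraries and 5.78 and 3.50 CPM in the beetle libraries. At 48 h they were 1.39 and 2.64 CPM against 5.84 and 3.34 CPM. The beetle-cage libraries thus kept nearly the same median levels from 0 to 48 h, and at each hour both lay above both controls, at 0 h as well. Summed levels of the members moved more. In the beetle cages they were 1328 and 1416 CPM at 0 h, 3328 and 1723 at 24 h, and 2286 and 1562 at 48 h. In the control cage they were 911 and 1001 CPM, then 1008 and 1440, then 685 and 1563. A single member, Soltu.DM.07G003120.2, held 1996 CPM of the 3328.

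**Figure D1:**
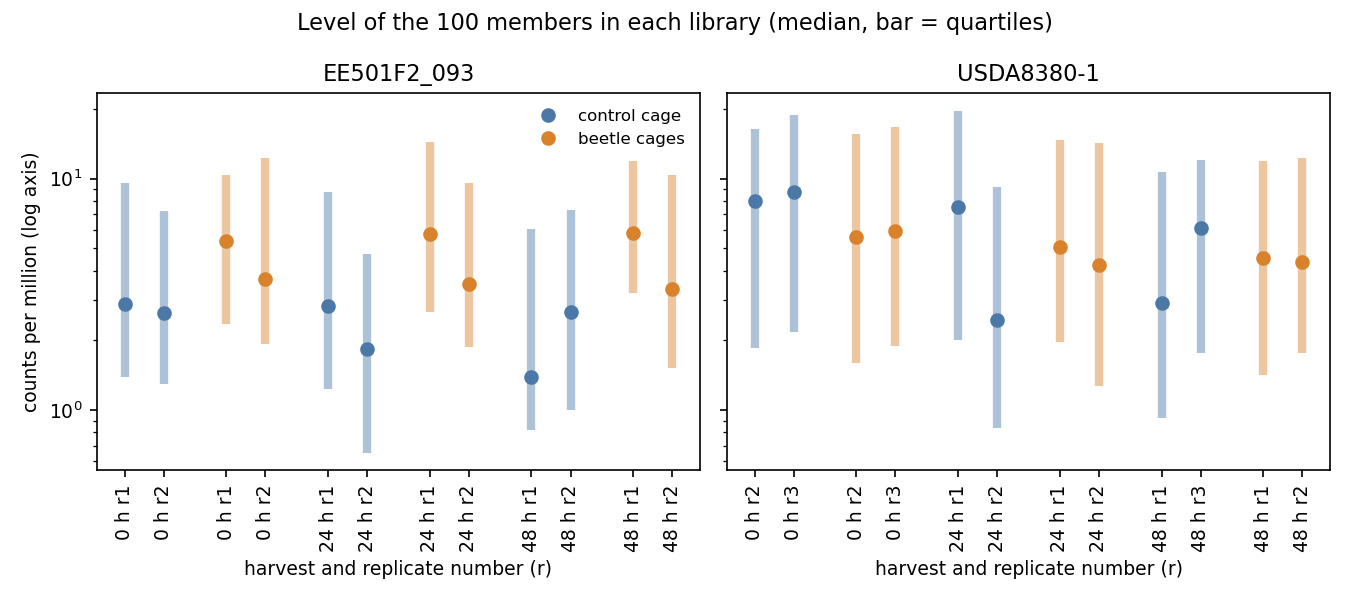
Level of the 100 members in each of the 24 libraries, in CPM on a log axis, with EE501F2_093 on the left and USDA8380-1 on the right; points are medians over members and bars run from the lower to the upper quartile. The EE501F2_093 beetle-cage medians lie between 3.34 and 5.84 CPM at every hour, 0 h included, and the USDA8380-1 control medians at 24 h are 7.52 and 2.46 CPM.

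At 0 h, 90 of the 100 members had a positive difference in EE501F2_093, against 50.9% of the 19825 genes. Their median difference was 0.39, with quartiles of 0.12 and 0.67, while the median over the 19825 genes was 0.005. A difference of at least 0.25 was found in 65 members, against 19.9% of all genes. A difference of -0.25 or lower was found in 2 members, against 16.9%. In 47 members both beetle-cage libraries lay above both control libraries at 0 h, against 19.2% of all genes. In 1 member both lay below, against 12.6%. No cause of this 0 h difference was tested, and the 4 libraries give each gene only 2 values an arm. The median member difference was 0.44 with beetle-cage replicate 1 alone and 0.29 with replicate 2 alone, against -0.03 and 0.07 over all genes. A positive difference was found in 84 members with replicate 1 alone (46.7% of all genes) and in 83 with replicate 2 alone (62.6%). Neither library by itself thus carried the sign. No single member passed the test at 0 h. The quasi-likelihood test of edgeR, fitted on all 24 libraries and adjusted by Benjamini-Hochberg over 24870 genes, called 0 members in this comparison against a background of 0.0% of all genes, and DESeq2 called 0 as well. At an unadjusted p under 0.05, edgeR found 4 members, all higher in the beetle cages, against 1.29% of all genes.

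The differences that chose the members were larger than those at 0 h for most of them. The median difference was 0.70 at 24 h and 0.67 at 48 h. It exceeded the gene's own 0 h difference at both hours in 75 members and at neither hour in 10, against 36.7% and 33.6% of all genes. In 25 members the 0 h difference was at least as high as the smaller of the later ones. These gains lay mostly on the control side. In the control cage of EE501F2_093 the members stood lower than at 0 h in 78 of 100 cases at 24 h and in 82 at 48 h, with median changes of -0.30 and -0.29 on the log2(CPM + 1) scale. In the beetle cages the median changes from 0 h were 0.09 at 24 h and 0.01 at 48 h, with 60 and 54 members higher. Over the 19825 genes the median changes were -0.06 and 0.04 in the control cage and -0.02 and 0.00 in the beetle cages. The median member thus stayed near its 0 h level in the beetle cages and stood lower in the control cage, which does not hold for a group of 15 members described below. These changes share the 24 and 48 h libraries with the choice of the genes and are a description.

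**Figure D2:**
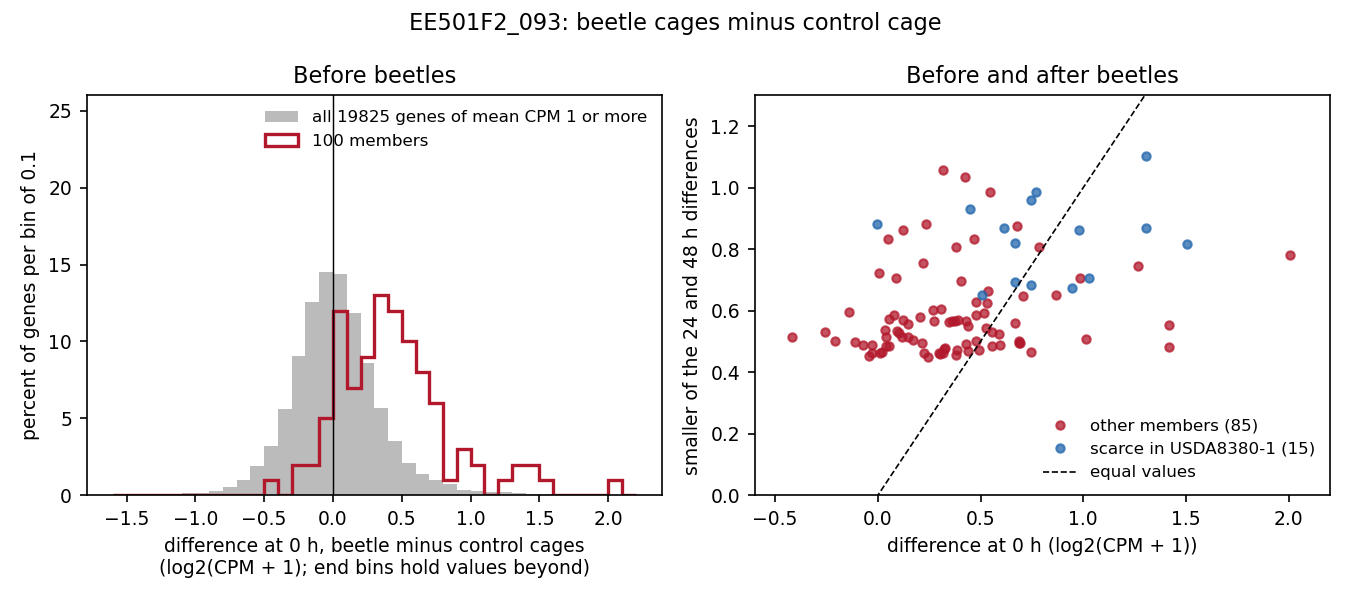
Left, the share of genes in each bin of 0.1 of the 0 h difference in EE501F2_093, on the log2(CPM + 1) scale, for all 19825 genes in grey and the 100 members as a red line; right, each member's 0 h difference against the smaller of its 24 and 48 h differences, with a dashed line of equal values. The members are shifted to the right at 0 h with a median of 0.39, and 25 of them lie on or to the right of the dashed line.

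With both beetle libraries set against both control libraries of EE501F2_093, 64 members had both above both at 24 h (16.1% of all genes), 57 at 48 h (15.2%) and 45 at both hours (5.34%). In 22 members the beetle libraries lay above the controls at each of 0, 24 and 48 h (2.2% of all genes). The rule chose for separation at 24 and 48 h, so nothing is read from those shares. The quasi-likelihood test of edgeR called 0 members at 24 h and 0 at 48 h, each against a background of 0.0%, and DESeq2 called 0 members against 0.00335% and 0.0167% of its genes. At an unadjusted p under 0.05, edgeR found 16 members at 24 h and 12 at 48 h, against 3.1% and 2.79% of all genes. The choice of the members by these same differences favours such counts, so nothing is read from them either. For the difference between the genotypes in the beetle contrast, edgeR called 0 members at either hour against 0.0%. At an unadjusted p under 0.05 it found 2 and 0 members, against 4.99% and 1.75%. DESeq2 was not run on this contrast. The rule set the 24 and 48 h differences of both genotypes, so these counts hold no separate information on a difference in response. The differences were larger at 24 h in 54 members and at 48 h in 46. A difference of at least 1, roughly a doubling for genes well above 1 CPM, was reached by 22 members at 24 h, by 14 at 48 h and by 3 at both. At 0 h it was already reached by 9.

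The first 2 members by the rule show how differently the same value can arise. Soltu.DM.04G028860.4, on chromosome 4, had the highest smaller difference of all, 1.10. In the EE501F2_093 control library of replicate 1 it lay at 9.91 CPM at 0 h, 9.05 at 24 h and 7.15 at 48 h. In replicate 2 of the same control cage it lay at 0.0798, 0 and 0.0224 CPM, which are 2, 0 and 1 reads, and a count of 0 at 24 h allows up to 0.0825 CPM. The beetle-cage libraries held 5.99 and 9.31 CPM at 0 h, 5.11 and 6.58 at 24 h, and 4.48 and 8.46 at 48 h. Control replicate 1 was thus above both beetle libraries at 0 and 24 h and between them at 48 h, and the whole positive difference came from the control library in which the gene was hardly read. Without control replicate 2 at 24 h the smaller difference was -0.56, and without control replicate 2 at 48 h it was -0.18. The same contrast between the control replicates was present at 0 h. In USDA8380-1 this gene was listed at 0 in 8 of the 12 libraries and at 0.946 CPM, 2 reads, in the shallow library.

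Soltu.DM.06G013790.1, on chromosome 6, was next at 1.06. Its control libraries of EE501F2_093 held 18.9 and 6.31 CPM at 0 h, 8.18 and 3.49 at 24 h, and 3.92 and 7.51 at 48 h. Its beetle-cage libraries held 16.3 and 12.0 CPM at 0 h, 16.2 and 9.41 at 24 h, and 17.5 and 11.5 at 48 h. The arms overlapped at 0 h and not at 24 or 48 h, and the beetle-cage levels were nearly the same at every hour. In USDA8380-1 it ranged from 13.3 to 71.2 CPM. Its control libraries there held 45.5 and 71.2 CPM at 0 h, 44.2 and 17.3 at 24 h, and 18.3 and 35.2 at 48 h. The beetle cages of USDA8380-1 went from 54.6 and 30.3 CPM to 41.1 and 14.8 and then 13.3 and 34.7, so the arms there overlapped at every hour.

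A gene whose arms were alike at 0 h and separate afterwards was Soltu.DM.12G019770.1 on chromosome 12, eighth by the rule. It lay at 29.9 and 25.8 CPM in the EE501F2_093 control libraries at 0 h and at 25.3 and 30.4 CPM in those of the beetle cages, a difference of -0.003. At 24 h the controls held 24.6 and 19.5 CPM and the beetle libraries 45.4 and 41.8. At 48 h the controls held 18.4 and 26.5 CPM and the beetle libraries 43.2 and 39.9. Here the later beetle libraries lay above all other libraries of the genotype, and the replicates lay close together. In 11 USDA8380-1 libraries the gene was at 0.0298 to 0.793 CPM, and in the shallow library it was at 3.78 CPM.

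**Figure D3:**
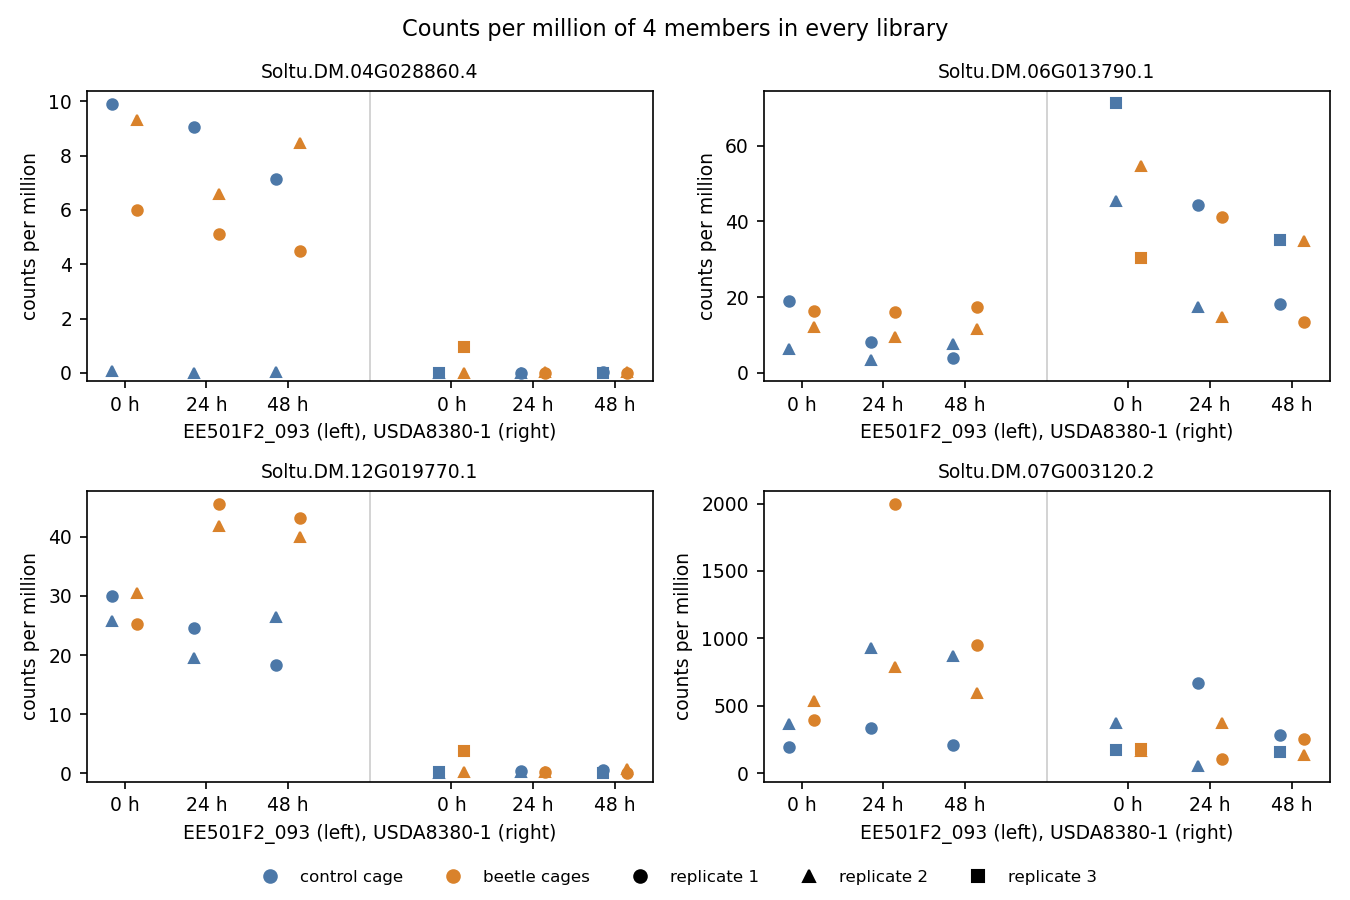
CPM of 4 members in each of the 24 libraries, by hour, with EE501F2_093 left and USDA8380-1 right in each panel, colour for the arm and marker shape for the replicate number. Soltu.DM.04G028860.4 is near 0 in control replicate 2 of EE501F2_093 at every hour, and Soltu.DM.12G019770.1 has beetle libraries of 39.9 to 45.4 CPM above controls of 18.4 to 26.5 CPM at 24 and 48 h.

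The member with the highest level in EE501F2_093 at 0 h, by share of reads, was Soltu.DM.07G003120.2 on chromosome 7, at 374 CPM ± 140 (SD, n = 4). Its control libraries held 195 and 367 CPM at 0 h, 333 and 930 at 24 h, and 212 and 869 at 48 h. Its beetle-cage libraries held 398 and 536 CPM at 0 h, 1996 and 790 at 24 h, and 950 and 595 at 48 h. The arms did not overlap at 0 h, and they did overlap at 24 and 48 h, where control replicate 2 exceeded beetle replicate 2. The next in level was Soltu.DM.05G006290.1 on chromosome 5, at 55.2 CPM ± 12.4 (SD, n = 4). Most members were much lower, with a 0 h mean under 10 CPM in 74 of 100.

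At 0 h, the 2 highest differences in EE501F2_093 belonged to Soltu.DM.05G000380.1 (chromosome 5) and Soltu.DM.10G002800.1 (chromosome 10), at 2.01 and 1.503. The first lay at 11.6 and 1.40 CPM in the control libraries and at 26.7 and 16.6 CPM in those of the beetle cages. At 48 h it lay at 1.24 and 25.1 CPM in the controls and at 146.2 and 7.69 CPM in the beetle libraries. Its replicates lay far apart within both arms, and the arms overlapped at 48 h. The log2 fold change at 0 h in edgeR was 1.69 (SE 1.44, adjusted p = 1.0). For Soltu.DM.10G002800.1 the 0 h controls held 0.975 and 0.399 CPM and the beetle-cage libraries 6.87 and 1.82 CPM. Its log2 fold change was 2.65 (SE 1.28, adjusted p = 1.0 in edgeR), with no overlap between arms. The lowest 0 h differences were -0.42 in Soltu.DM.01G046590.1 and -0.26 in Soltu.DM.02G019680.1. The first of these lay at 4.47 and 4.23 CPM in the controls at 0 h and at 2.71 and 3.32 CPM in the beetle cages. By 24 h its controls held 1.96 and 1.87 CPM and its beetle libraries 4.99 and 2.15 CPM, so the order of the arms turned.

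In USDA8380-1 the averages were level by choice, but the libraries behind them were not. The members' median difference was 0.03 at 24 h and -0.01 at 48 h. The control libraries at 24 h had medians of 7.52 CPM in replicate 1 and 2.46 CPM in replicate 2, and the beetle libraries 5.04 and 4.24 CPM. At 48 h the control medians were 2.91 CPM in replicate 1 and 6.14 CPM in replicate 3, against 4.53 and 4.35 CPM with beetles. The beetle libraries lay between control libraries that were far apart. This held for single genes too: both beetle libraries lay between the controls in 47 members at 24 h and in 50 at 48 h, against 19.7% and 15.8% of all genes. The limit on the difference of the means favours such genes, so nothing is read from these counts. The control replicates at 24 h differed by a median of 0.90 on the log2(CPM + 1) scale in the members and 0.60 in all genes, with a gap over 1 in 45 members (28.7% of all genes), and replicate 1 was the higher in 80 (61.9%). At 48 h the median gap was 0.44 in the members and 0.37 in all genes. Both beetle libraries lay above both controls in 1 member at 24 h (7.58% of all genes) and in 4 at 48 h (14.3%), counts that the 0.25 limit holds down.

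**Figure D4:**
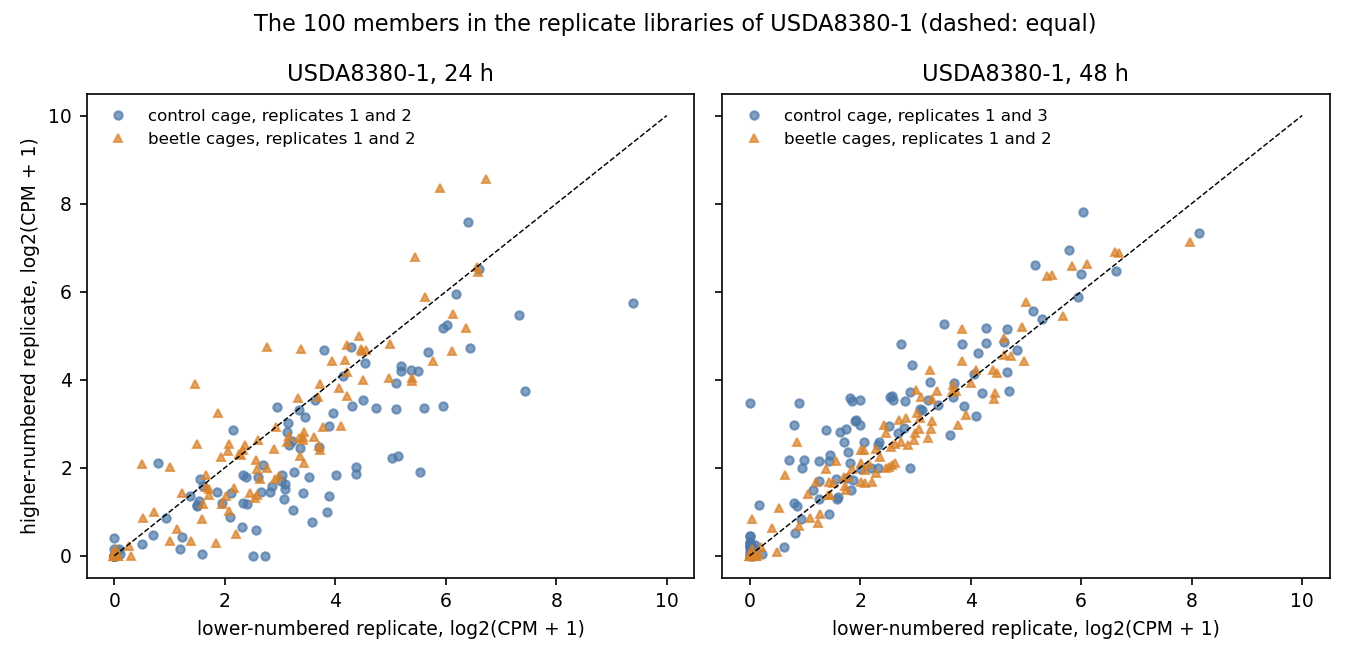
Each member's log2(CPM + 1) in the replicate libraries of USDA8380-1 at 24 h (left) and 48 h (right), with circles for the control cage, triangles for the beetle cages and a dashed line of equal values. At 24 h the control circles lie mostly below the line, with replicate 1 higher in 80 members and in 61.9% of all genes.

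At 0 h, whose libraries entered the rule only through the mean CPM, the members' differences in USDA8380-1 lay on both sides of 0. With all 4 libraries, 51 members were higher and 47 lower in the cages later given beetles, with a median difference of 0.02, while 67.3% of all genes were higher and their median was 0.28. Without the shallow library the members' median was -0.18, with 31 higher and 62 lower, and the median over all genes was 0.21, with 70.2% higher. Both beetle-cage libraries lay above both controls in 20 members (39.6% of all genes) and below both in 30 (13.8%). The deeper beetle-cage library, replicate 2, alone lay above both controls in 26 members (53.3% of all genes) and below both in 48 (20.2%). The edgeR test called 0 members in this comparison against a background of 0.00402%, with 16 members at an unadjusted p under 0.05, against 13.0% of all genes. Without the shallow library it called 0 members against 0.0%, with 5 members at an unadjusted p under 0.05, against 2.88%. DESeq2, run with that library only, called 0 members against 1.25%. Without USDA8380-1 beetle 0 h replicate 2, edgeR called 5 members, all higher in the beetle cages, against 4.77% of all genes, a share near that of the members, and these calls rest on the shallow library alone.

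The members also differed in level between the libraries of the 2 genotypes at 0 h. Each genotype had its own cages, so genotype and cage or set of plants cannot be told apart in this comparison. Taking the mean of both arms, edgeR called 46 of the 100 members at an adjusted p under 0.05 against a background of 16.6%. Of these, 31 were lower in EE501F2_093, against 8.76% of all genes tested, and 15 were higher, against 7.8%. Among genes of at least 1 CPM the 2 shares were 8.75% and 7.72%, close to the shares over all genes tested. The mean CPM and the 24 and 48 h values of both genotypes entered the choice, so the genes were not drawn at random with respect to level. The count of 46 fell to between 24 and 28 when any of 6 libraries at 0 h was left out, namely USDA8380-1 control replicate 2 (28) or 3 (25), USDA8380-1 beetle replicate 2 (24), EE501F2_093 control replicate 2 (26), and EE501F2_093 beetle replicate 1 (28) or 2 (28). The share of all genes called fell as well, from 16.6% to between 8.24% and 10.9% under these 6 settings. Without the shallow library the count was 37, against 13.3%.

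The lower-called members included Soltu.DM.05G008450.1 on chromosome 5, with a log2 fold change of -3.29 (SE 0.75, adjusted p = 0.00781 in edgeR). At 0 h it held 5.19 and 1.36 CPM in the EE501F2_093 control, 4.81 and 3.26 CPM in the EE501F2_093 beetle cages, 62.1 and 60.7 CPM in the USDA8380-1 control and 28.9 and 9.93 CPM in the USDA8380-1 beetle cages. The 9.93 CPM were 21 reads in the shallow library. The genotypes did not overlap, and the call was lost without USDA8380-1 beetle replicate 2. Soltu.DM.03G011900.1 on chromosome 3 had a log2 fold change of -2.88 (SE 0.45, adjusted p = 0.000491 in edgeR). Its 4 EE501F2_093 libraries at 0 h lay at 0.759 to 3.45 CPM and its 4 USDA8380-1 libraries at 8.82 to 16.6 CPM. Over all 12 libraries of each genotype the ranges were 0.695 to 3.45 CPM and 4.63 to 16.6 CPM, with no overlap. The 16.6 CPM were 35 reads in the shallow library, and the highest of the deeper USDA8380-1 libraries held 13.7 CPM. Soltu.DM.06G013790.1, described above, was also lower, with a log2 fold change of -1.90 (SE 0.48, adjusted p = 0.0129 in edgeR). Of the members past the test in the other direction, the naming rule gave only Soltu.DM.12G019770.1. That rule asks for a mean of at least 5 CPM over all 24 libraries. Its 0 h levels were 27.9 CPM ± 2.67 (SD, n = 4) in EE501F2_093 against 1.07 ± 1.81 in USDA8380-1. The USDA8380-1 mean and SD rest mostly on the shallow library, at 3.78 CPM from 8 reads, while the others held 0.0979 to 0.193 CPM. The log2 fold change was 6.31 (SE 0.73, adjusted p = 5.11e-05 in edgeR).

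The higher-called members were, except for 1, genes that USDA8380-1 hardly had reads for. In 15 members the mean was under 0.5 CPM over the 11 deeper USDA8380-1 libraries, a split chosen after the values were seen. Genes of this kind were 1.24% of the 19825. Such genes pass the floor of 1 CPM only through EE501F2_093, so the split itself sets their direction: 14 of the 15 were among the calls higher in EE501F2_093 at 0 h, and nothing is read from that. Of the other 85, 1 was called higher, 31 lower and 53 were not called. The median log2 fold change of those 85 was -1.10. The scarce genes made up 10 of the first 20 places by the rule. A gene below 0.189 CPM in every 24 and 48 h library of USDA8380-1 cannot reach a difference of 0.25 there, whatever happens to it, and 8 members were of that kind, against 0.328% of all genes. For them the level average in USDA8380-1 holds no information on a response.

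In EE501F2_093 these 15 genes differed strongly between replicate libraries of the same arm. Their summed level was 70.0 and 51.2 CPM in the control libraries at 0 h, 75.4 and 26.1 at 24 h, and 43.8 and 35.6 at 48 h. In the beetle cages it was 117.8 and 79.1 CPM at 0 h, 217.6 and 77.0 at 24 h, and 119.7 and 61.6 at 48 h. Replicate 1 exceeded replicate 2 in each of these 6 pairs, and 77.0 CPM in beetle replicate 2 at 24 h was close to the 75.4 CPM of control replicate 1. Beetle replicate 1 was above beetle replicate 2 in 12 of the 15 genes at 0 h, 13 at 24 h and 14 at 48 h, and control replicate 1 above control replicate 2 in 13, 15 and 13. With beetle replicate 1 alone the median difference of the 15 was 1.35 at 0 h, 2.55 at 24 h and 1.65 at 48 h. With beetle replicate 2 alone it was 0.26, 0.18 and -0.02. The arms of only 1 of the 15, Soltu.DM.12G019770.1, did not overlap at both 24 and 48 h, against 44 of the other 85 and 5.34% of all genes; these hours chose the genes. From 0 to 24 h the median change of the 15 was 0.58 in the beetle cages, with 13 higher, and -0.11 in the control cage. From 0 to 48 h it was -0.45 and -0.34, with 13 lower in each arm, so these genes did not stay near their 0 h level.

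**Figure D5:**
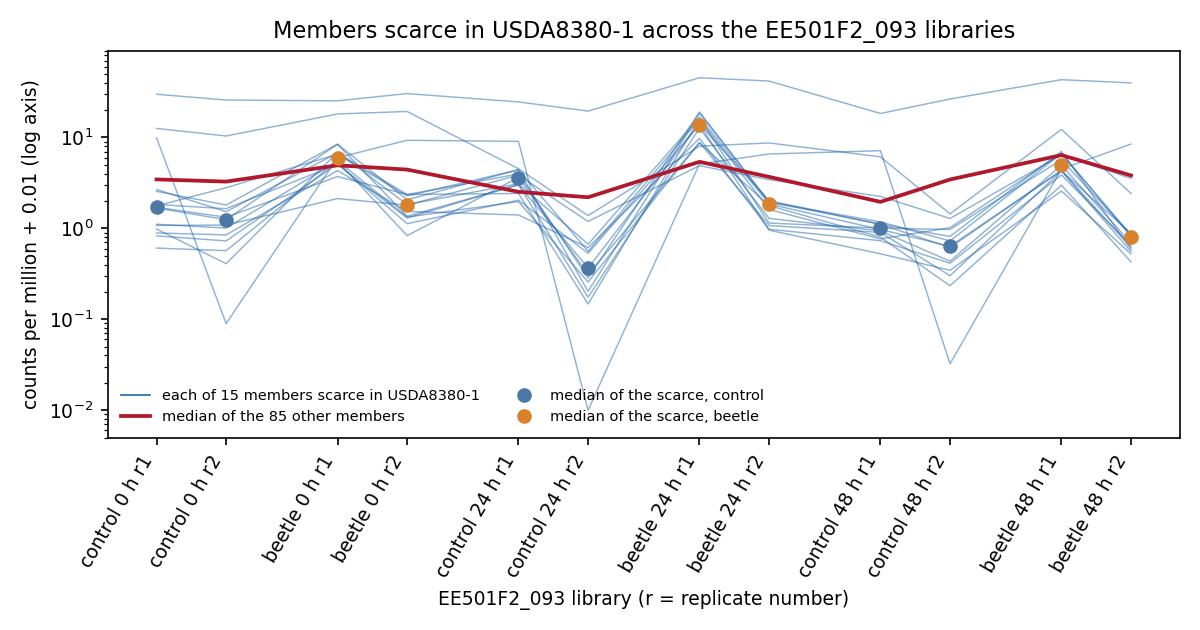
CPM plus 0.01, on a log axis, of each of the 15 members scarce in USDA8380-1 (thin blue lines) in the 12 EE501F2_093 libraries, with their median as points coloured by arm and the median of the other 85 members as a red line; lines join libraries only to help the eye. Their median is highest in beetle replicate 1 at each hour, with 13.9 CPM at 24 h against 1.84 CPM in beetle replicate 2.

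In USDA8380-1 the summed level of the 15 was 0.405 to 2.44 CPM in 11 libraries and 16.1 CPM, from 34 reads, in the shallow library, where 13 of the 15 had a read. Whether the low depth of that library plays a part in this value was not tested. Without it, 0 of the 15 had a 0 h difference of at least 0.25 in USDA8380-1, and with it 11 did.

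The gap between replicates 1 and 2 in the beetle cages of EE501F2_093 was wider in the 15 scarce genes than in the other 85. The median of replicate 1 minus replicate 2 at 0, 24 and 48 h was 1.21, 2.45 and 1.73 in the 15. It was 0.09, 0.17 and 0.46 in the 85. Replicate 1 was the higher in 50, 54 and 63 of the 85, against 40.9%, 40.6% and 55.5% of all genes. In the control cage replicate 1 was the higher in 46, 54 and 20 of the 85, against 38.8%, 60.7% and 50.2%. In 37 members beetle replicate 1 was above beetle replicate 2 at 0, 24 and 48 h, against 9.45% of all genes. The 24 and 48 h libraries took part in the choice, so nothing is read from that count. Nor are the members separate cases. Over the 12 EE501F2_093 libraries the median correlation between 2 members was 0.91 in the 15 and 0.52 in the 85. At 24 h the members' median difference was 0.85 with beetle replicate 1 alone and 0.47 with replicate 2 alone. At 48 h it was 0.92 and 0.40. With replicate 2 alone, 88 members at 24 h and 82 at 48 h still had a positive difference, against 59.6% and 44.7% of all genes; that library took part in the choice. Whether a replicate number marks the same plants over the hours is not given in the labels.

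The members were spread over the genome, with 19 on chromosome 1, where 12.8% of the 19825 genes lie, 12 on chromosome 3, 11 on chromosome 2, 10 on chromosome 9, between 4 and 9 on each of the other chromosomes and 1 on unplaced sequence. Of the 15 scarce genes, 5 were on chromosome 1. In 8 pairs the members lay at most 10 identifiers apart, and 2 pairs were next to each other. Soltu.DM.07G003110.1, next to Soltu.DM.07G003120.2, followed it closely at a lower level. It held 12.8 and 26.9 CPM in the EE501F2_093 controls at 0 h, 18.8 and 62.4 at 24 h, and 14.4 and 60.4 at 48 h. Its beetle-cage libraries held 26.6 and 34.7 CPM, then 129.4 and 47.1, then 57.3 and 53.6. As in its neighbour, control replicate 2 lay above control replicate 1 at each hour and beetle replicate 1 at 24 h was the highest library. These counts do not show whether near-identical copies shared reads, so both genes are uncertain in that respect. The other pair, Soltu.DM.01G021450.1 and Soltu.DM.01G021460.1, differed in the genotype comparison, at log2 fold changes of 0.11 (SE 0.41, adjusted p = 0.892) and -2.10 (SE 0.38, adjusted p = 0.00167) in edgeR.

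The limits of the rule cut through a continuous range. The last member, Soltu.DM.02G027660.1, had a smaller difference of 0.451 in EE501F2_093, and the first gene left out, Soltu.DM.03G027450.1, had 0.448. At the limit of 0.25 in USDA8380-1, Soltu.DM.09G031730.1 lay inside at 0.249 and Soltu.DM.09G009540.1 outside at 0.257. In all, 1044 genes reached the EE501F2_093 value of the last member. Of these, 361 had differences of at least 0.25 at both hours in USDA8380-1 too, 23 had differences of -0.25 or lower at both, 560 were outside the limit in other ways and 100 were the members. These counts use the differences that chose the genes and depend on where the limits are set, so nothing is read from their order.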

How the data were processed

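The authors deposited raw read counts for each gene. Tools listed in the submitters' processing notes are HTSeq, Picard, STAR 2.7.3a and Trimmomatic 0.35. A genome build and annotation were not given in the sources used here. Per the labels' protocols, stranded mRNA libraries were sequenced as single reads of 50 nt. The 5 HTSeq summary lines were kept out of all totals. CPM are counts per 1000000 reads on genes, not adjusted for gene length. Differences used log2(CPM + 1), which understates the change of low genes. Counts were tested with edgeR 4.0.16 (TMM, filterByExpr, quasi-likelihood) in R 4.3.3, in 1 fit of 24 libraries and 12 groups with 12 residual degrees of freedom, and with DESeq2 1.42.0 as an alternative; the code was checked on simulated counts. All 100 members were among the 24870 genes tested. SE are those implied by the test statistic. The upper limit for a count of 0 is 3 counts in that library and, like every count, covers counting error only. The members and lists were chosen with earlier results of these data known. Identifiers named are the first 2 members, those at the rule's limits, the 2 of highest 0 h level, the extremes of the genotype and 0 h comparisons and 2 neighbouring pairs. Gene lists by function were not analysed here, and no sequences are shown.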

Additional observations from a re-analysis of the deposited data

Results flagged for a closer look

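In sets of 4 libraries of a genotype at 0 h, a library was marked when its distance from the nearest other exceeded a set share of the whole range (Dixon's limit). Of 20 sets looked at, 5 were marked. Chance marks about 1 in 20 of separate sets, but these sets overlap, so the 2 numbers cannot be compared. The summed levels include the single genes named below. For Soltu.DM.10G002800.1, zeros in the others make any single read a marked value. Each of the 5 was in USDA8380-1 and in a beetle-cage library. The summed level of the members was 1438.587 CPM in USDA8380-1 beetle 0 h replicate 2, against 1832 to 1879 CPM in the others. The summed level of the 15 scarce members was 16.082 CPM in the shallow library, USDA8380-1 beetle 0 h replicate 3, against 0.661 to 0.764 CPM. In the same library Soltu.DM.12G019770.1 was at 3.784 CPM, against 0.0979 to 0.193 CPM, and Soltu.DM.10G002800.1 was at 0.473 CPM, a single read, against 0 in the others. Soltu.DM.05G000380.1 was at 39.047 CPM in USDA8380-1 beetle 0 h replicate 2, against 86.2 to 95.4 CPM in the others.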

How the results depend on the processing

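Which genes are members depended on the settings of the rule. Chosen again, the list kept 56 of the 100 with log2(CPM + 4), 61 with TMM-scaled CPM, 37 with the USDA8380-1 limit at 0.5, 19 with it at 0.1, 46 with a mean of at least 5 CPM, and 35 without both libraries that stand apart in USDA8380-1 (the shallow one and control 24 h replicate 2). Leaving out each library in turn kept 33 to 100, with 33 and 35 reached without USDA8380-1 control 24 h replicate 1 and 2. The median 0 h difference in EE501F2_093 was 0.28, 0.54, 0.15, 0.29 and 0.29 under these settings other than TMM, and 0.26 to 0.47 leaving out each library. The count above 0, added after seeing the data, was 70 to 95 over the planned settings, 78 to 91 leaving out each library, and 76 of 85 without the scarce genes. The smaller difference of Soltu.DM.04G028860.4 turned to -0.56 and -0.18 without control replicate 2 at 24 and 48 h and ranged from -0.56 to 1.32 over the libraries left out.

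In the genotype comparison at 0 h, 45 to 61 members were called under other scalings, filters, tools and sets of libraries (13.2% to 22.1% of all genes), and 24 to 55 leaving out each library (8.24% to 19.2%). In USDA8380-1 at 0 h, members were called only when beetle replicate 2 was left out. Those calls rest on the shallow library alone, and their share was near that of all genes, as given above. In EE501F2_093 no setting run called a member at 0, 24 or 48 h. With the replicate number as a replicate block, the genotype count was 33 (9.36% of all genes), with 13 higher (4.36%) and 20 lower (5.0%). The labels do not say that the numbers pair libraries; deviations of same-numbered libraries correlated at -0.17 to 0.16 across genes. With the numbers of the EE501F2_093 control crossed at 0 h, the crossed replicate block called 0 members. The spread between 2 libraries a group, more than the depth of 23 of them, limits single genes, and a read in the shallow library is worth more CPM than in any other.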
